A study of Mus musculus with 531 samples.

Results

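The nuclear respiratory chain subunit genes are the genes of the cell nucleus that encode protein subunits of respiratory complexes I to IV. Members were chosen by gene symbol alone, as the Ndufa, Ndufb, Ndufc, Ndufs and Ndufv genes, the Uqcr genes, the Cox4 to Cox8 genes and Sdha to Sdhd. Pseudogenes and the Ndufaf assembly factors were left out. The rule found 68 of the 22084 genes counted. They divide into 36 genes of complex I, 4 of complex II, 8 of complex III and 20 of complex IV, with Ndufa4 and its paralogue Ndufa4l2 placed in complex IV. Cyc1, the cytochrome c1 of complex III, falls outside the symbol rule and is counted below among the electron carriers.

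The respiratory chain sits in the inner mitochondrial membrane. Complex I takes electrons from NADH and complex II takes them from succinate. Complex III passes them from ubiquinol to cytochrome c, and complex IV, cytochrome c oxidase, passes them to oxygen. A small set of catalytic subunits is encoded by mitochondrial DNA, and all other subunits are made in the cytoplasm from nuclear transcripts and imported. Complex II is wholly nuclear and is also an enzyme of the citric acid cycle. Several complex IV subunits have alternative isoform genes that are known for use in heart and muscle, lung or testis.

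RNA was sequenced from 264 single cells of C57Bl/6Babr mouse embryos on the days when the epiblast leaves pluripotency. The labels give 5 embryos at embryonic day (E) 4.5, 1 embryo at E5.5 and 2 embryos at E6.5, with 91, 80 and 93 cells. The study's text counts fewer E4.5 embryos than the labels, so some E4.5 samples numbered apart may share an embryo, and p-values and SDs there may then understate the spread. The embryo as labelled was the replicate throughout, and a cell was used if it had at least 50000 counted reads and 2000 genes with a read. The 217 cells that passed (75, 59 and 83 by stage) had 112008 to 8904445 reads each. No group carried a treatment or engineered allele by the labels, and trophectoderm (E4.5) or extraembryonic tissue (later stages) was removed before single cells were picked.

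Lineages were rebuilt by clustering the cells with all 68 subunit genes left out, and clusters were named from marker lists. The E4.5 cells divided into 24 epiblast-like and 50 endoderm-like cells, with both lineages in each of the 5 embryos. At E5.5, 36 cells were epiblast-like and 8 were endoderm-like. Those 8 all had cell numbers that were multiples of 12, so lineage and place in the collection cannot be told apart there. At E6.5, 12 cells were endoderm-like and 23, all from embryo 2, were mesoderm-like. A further E6.5 cluster of 29 cells raised 7 of the 10 epiblast markers and 6 of the 10 trophoblast markers over the other E6.5 cells. It could not be named and is called the mixed-marker cluster. It stands where E6.5 epiblast-like cells were planned. With cell numbers counted in rows of 12, its cells in embryo 2 stood at places 6 to 8 and the mesoderm-like cells at 10 to 12. Lineage and place cannot be told apart between these 2 sets of cells either. Another 20 cells with few genes and 15 deeply sequenced E6.5 cells stayed unnamed.

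Markers of other lineages were present in nearly every E6.5 library. Ttr and Apoa1, secreted proteins of the visceral endoderm, had reads in 29 of 29 mixed-marker cells and in 23 of 23 mesoderm-like cells. The median Ttr level was 1044 CPM in the mixed-marker cells, where CPM is a gene's reads scaled to a common total for every cell. At E5.5, Ttr was read in 2 of 36 epiblast-like cells. Elf5, a trophoblast factor, was read in 26 of 29 mixed-marker cells and in 1 of the 24 E4.5 epiblast-like cells. It was also read in 9 of 12 endoderm-like and 5 of 23 mesoderm-like cells at E6.5, and in 0 of 50 endoderm-like cells at E4.5. Prl8a2, from the list of blood and maternal markers, was read in 25 of 29 mixed-marker, 9 of 12 endoderm-like and 1 of 23 mesoderm-like cells at E6.5. At E4.5 it was read in 0 of 24 epiblast-like and 0 of 50 endoderm-like cells. The number of genes with a read also differed by stage, with embryo means averaging 6754 in E4.5 epiblast-like cells and 9274 in the mixed-marker cells. Their part in the stage comparisons was not tested beyond leaving out the cells with Elf5 reads.

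Short words known as binding sites of nuclear regulators of mitochondrial genes were looked for in the promoters, on both strands, from 250 bases before to 50 bases after each RefSeq start (GRCm38.p6). A promoter was found for 54 members. The NRF1 word GCGCATG stood in 18.5% of the members' promoters and in 4.41% of all 27025 genes' promoters. The ETS word CCGGAAG, as bound by GABPA, stood in 20.4% and 9.93%, and the YY1 word AAGATGGC in 12.96% and 3.19%. At least 1 of the words stood in 23 of the 54, or 42.6%, against 15.9% of all genes. The share over all genes was not limited to genes expressed in these cells, so the excess is not shown to be particular to the members. Of the members that differed in a comparison, Cox5a, Cox7b, Cox7c, Ndufb4 and Uqcr10 had a promoter with none of the words. The windows that follow are those of the members that differed in a comparison and held a word, and of the complex II genes Sdhb and Sdhd, with the word in capitals on the strand of the gene.
Ndufa6, NRF1 word, chr15:82354355-82354384, minus strand: ccgcggtagagCATGCGCattgcagagccc
Cox6b1, ETS word, chr7:30626124-30626153, minus strand: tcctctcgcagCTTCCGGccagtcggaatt
Ndufs4, YY1 word, chr13:114388045-114388070, minus strand: ttgcctacaggAAGATGGCggcggtc
Sdhb, NRF1 word, chr4:140961207-140961236, plus strand: agcccagtgggCATGCGCcctacgggccgc
Sdhd, ETS word, chr9:50603877-50603906, minus strand: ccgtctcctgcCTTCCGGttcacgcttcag
Sdhb, ETS word, chr4:140961266-140961295, plus strand: gctcggagaaaCCGGAAGcggccttccact
The first base of the word lay 28 to 82 bases before the start for Ndufa6, Cox6b1, Sdhd and the NRF1 word of Sdhb, whose letters stand on the opposite strand. It lay after the start for the YY1 word of Ndufs4 and the ETS word of Sdhb. A word is a description of the letters, not a measured binding site.

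Subunit transcripts were among the common transcripts of these cells. Summed over the 68 genes, they took 35776 ± 1345 CPM (SD over embryo means, n = 5) in E4.5 epiblast-like cells and 31044 ± 3976 CPM (n = 5) in E4.5 endoderm-like cells. The sum was higher in the epiblast-like cells in 5 of 5 embryos, by 4732 ± 3085 CPM. The mean log2(CPM + 1) over members, which weights each gene alike, was higher by 0.41, 0.22, 0.08 and 0.48 in embryos 1, 3, 4 and 5 and differed by -0.10 in embryo 2, where 30 of 68 members were higher. Complex I, III and IV sums each had the same direction in 5 of 5 embryos, while the complex II sum was higher in the epiblast-like cells in 1 of 5.

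After E4.5 the sum took 29775 CPM in E5.5 epiblast-like cells and 39717 CPM in E5.5 endoderm-like cells of the same embryo. In the mixed-marker cluster at E6.5 it was 25218 CPM in embryo 1 and 20616 CPM in embryo 2, so both embryos lay below all 5 E4.5 epiblast values, of which the lowest was 33447 CPM. E6.5 mesoderm-like cells, from embryo 2, had 19693 CPM. E6.5 endoderm-like cells had 24502.5 CPM in embryo 1 and 27009 CPM in embryo 2. These overlapped the E4.5 endoderm-like values, of which the lowest was 25162 CPM. Unnamed cells went both ways. The deep E6.5 cells of embryo 2, at 27728 CPM, also lay below all 5 E4.5 epiblast values. The deep E6.5 cells of embryo 1 had 41026 CPM, the E6.5 cells with few genes 53726 and 47191 CPM, and the E5.5 cells with few genes 41189 CPM. These lay above all 5, of which the highest was 36747 CPM. CPM are shares of the reads of a cell, so less RNA of these genes and more RNA of other genes cannot be told apart. In 9 of the 13 groups of at least 6 cells from 1 embryo and class, cells with more genes read had a smaller subunit share (Pearson r from -0.81 to -0.18), a description of cells that share an embryo. In the other 4, all at E6.5, r was 0.02 to 0.67. After thinning every cell to 50000 reads, a mean of 60.2 members were read per E4.5 epiblast-like cell and 60.9 per mixed-marker cell.

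**Figure D1:**
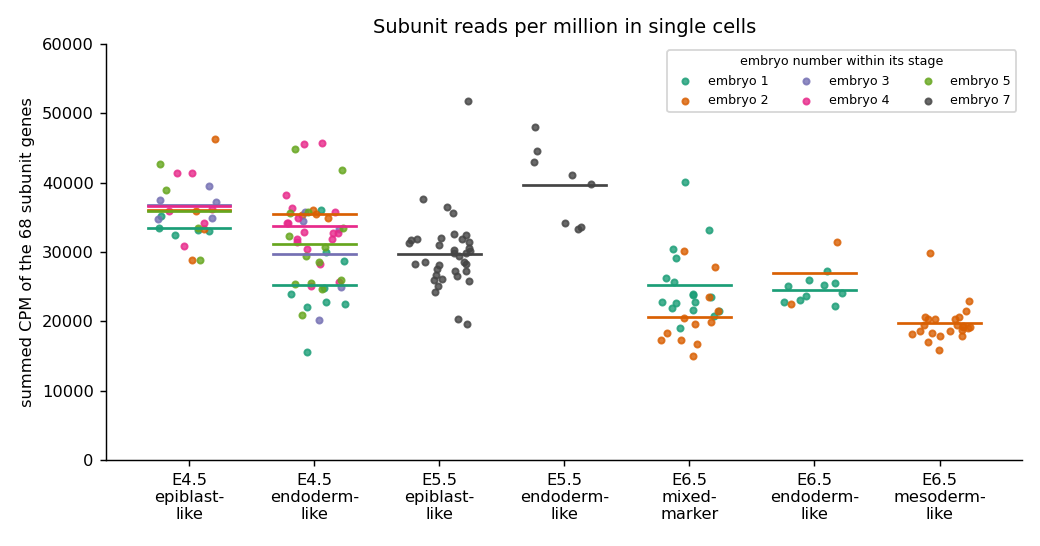
Summed CPM of the 68 subunit genes (vertical axis, linear from 0) in each cell, by stage and lineage, with points colored by embryo and bars at embryo means. Embryo numbers are counted within a stage, so embryo 1 at E4.5 and embryo 1 at E6.5 are different embryos. Both E6.5 mixed-marker embryo means, 25218 and 20616 CPM, lie below the lowest E4.5 epiblast-like mean, 33447 CPM.

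Among single genes, levels were compared per kilobase (kb) of the principal coding transcript of GENCODE M21. Cox4i1, the general form of the largest nuclear subunit of complex IV, was the highest in E4.5 epiblast-like cells at 3081 ± 285 CPM per kb (SD, n = 5). Uqcr11, a small complex III subunit, followed at 2719 ± 654 and Cox6c, a small membrane subunit of complex IV, at 2438 ± 452 CPM per kb. Each of these differed from the next by less than the SD of Uqcr11, so their order is not firm. The subunits of complex II were lower per kb. Sdhb, the iron-sulfur subunit, had 326 ± 28.9 CPM per kb and Sdhd, a membrane anchor, 263 ± 79.2, while Sdhc, the other anchor, had 56.9 ± 10.3 and the flavoprotein Sdha 47.3 ± 35.6 CPM per kb. The large catalytic complex I subunit Ndufs1 had 19.8 CPM per kb.

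The first comparison asked how the subunit genes differ between the lineages of the E4.5 inner cell mass, epiblast and primitive endoderm. More subunit genes were higher in the epiblast-like cells than lower. Of the 62 members with enough counts to test, 7 were higher in the epiblast-like cells at an adjusted p under 0.05 (edgeR quasi-likelihood test on counts summed per embryo and lineage, embryo as a block, Benjamini-Hochberg over all genes) and 0 were lower. They were Cox5a, Uqcr10, Ndufa6, Ndufs4, Ndufb4, Uqcrq and Cox6c. That is 11.3% of the members tested, where 6.27% of all 9451 genes were higher and 6.90% were lower. The median log2 fold change was 0.21 over the members and -0.13 over all genes, and 46 of the 62 were above 0. All genes of like transcript length lay near the members where transcripts were short, with medians of 0.31 for all genes and 0.31 for members up to 600 bases and of 0.21 and 0.25 from 600 to 1000 bases. From 1000 to 2000 bases they were -0.05 and 0.15, from 2000 to 4000 bases -0.22 and -0.23 (5 members), and beyond that -0.19 and 0.33 (1 member).

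The complex IV subunit Cox5a, on the matrix side of the enzyme, was called in 4 of the 5 fits without 1 embryo. Its mean log2(CPM + 1) in epiblast-like cells was 9.49, 9.67, 9.51, 9.83 and 9.995 in embryos 1 to 5, and in endoderm-like cells 8.85, 8.90, 8.85, 9.13 and 9.16. Every epiblast-like value lay above every endoderm-like value. The log2 fold change was 0.78 ± 0.18 (SE, adjusted p = 0.012 by edgeR).

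Complex III contributed Uqcr10 and Uqcrq, both small subunits without a known redox group. Uqcr10 had levels of 9.79, 9.997, 10.27, 9.89 and 9.58 in epiblast-like cells and 8.54, 9.68, 9.01, 9.51 and 8.37 in endoderm-like cells, on the log2(CPM + 1) scale. Each embryo had the higher level in its epiblast-like cells, but the ranges overlapped, with endoderm-like cells of embryo 2 above epiblast-like cells of embryo 5. Its log2 fold change was 0.84 ± 0.21 (adjusted p = 0.020 by edgeR), and that of Uqcrq was 0.63 ± 0.19 (adjusted p = 0.045).

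Complex I contributed Ndufa6, which contacts the acyl carrier protein of the complex, Ndufs4, whose loss causes a Leigh syndrome-like disease in mice, and Ndufb4 of the membrane arm. Ndufa6 had log2(CPM + 1) levels of 7.83, 8.52, 8.34, 8.63 and 8.36 in epiblast-like cells and 6.65, 8.01, 7.32, 7.29 and 7.56 in endoderm-like cells. Its log2 fold change was 0.84 ± 0.22 (adjusted p = 0.024 by edgeR). For Ndufs4 and Ndufb4 the fold changes were 0.77 ± 0.22 and 0.70 ± 0.21 on the log2 scale (adjusted p = 0.037 and 0.041). Cox6c was 0.60 ± 0.18 higher (adjusted p = 0.047).

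Which 7 genes were called depended on single embryos. Without embryo 3 no member was called (10 had an unadjusted p under 0.05 by edgeR), without embryo 1 only Cox5a was, and without embryo 4 there were 3 calls. The Cox5a log2 fold change itself stayed between 0.74 and 0.84 over the 5 fits without 1 embryo. Without the embryo block 1 member, Cox5a, was called. Within the embryos titled P1 (1 and 2) and within those titled P2 (3, 4 and 5), a mark the labels do not explain, no member was called, with 2 and 13 members at an unadjusted p under 0.05 and median log2 fold changes of 0.38 and 0.15.

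The complex II genes were near or below 0. Sdha, Sdhb, Sdhc and Sdhd had log2 fold changes of -0.40 ± 0.42, -0.02 ± 0.20, -0.23 ± 0.26 and 0.08 ± 0.22, and none passed the test (adjusted p from 0.60 to 0.96 by edgeR). The signs of Sdhb and Sdhd turned under other settings, including scaling by library totals for Sdhd.

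**Figure D2:**
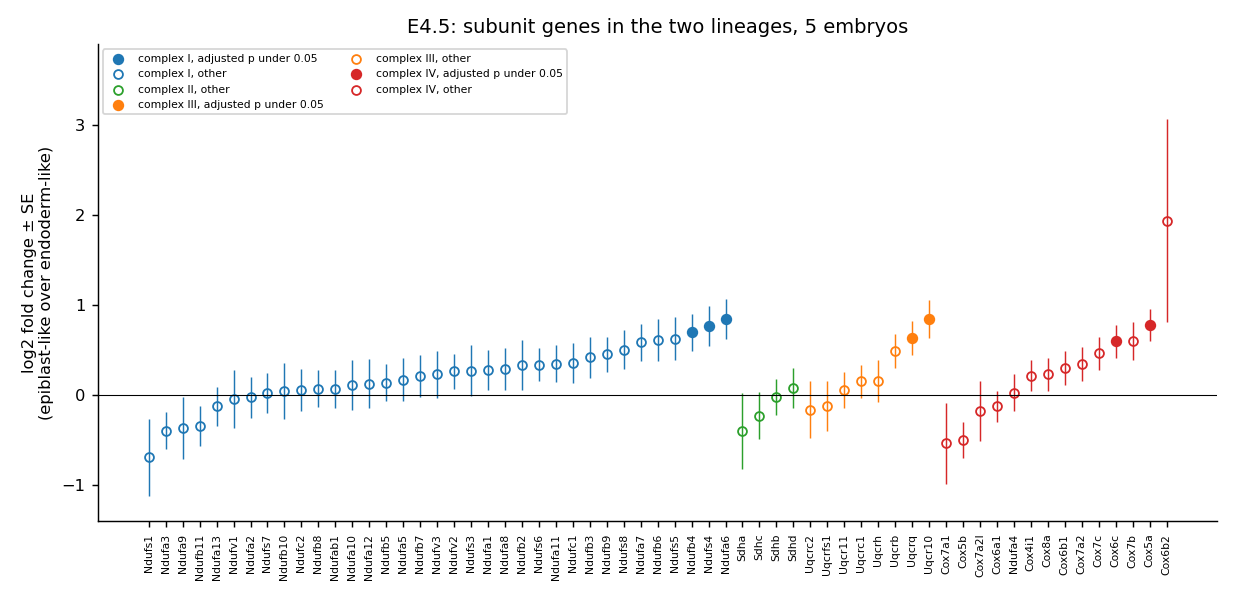
Log2 fold change of the subunit genes reported here between epiblast-like and endoderm-like cells of 5 E4.5 embryos, by complex (colors), with bars for ± 1 SE and filled points for an adjusted p under 0.05. The 7 filled points all lie above 0, and 4 complex II genes spread from -0.40 to 0.08.

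Other gene lists were counted in the same comparison. Of 77 mitochondrial ribosomal protein genes tested, 5 were higher in the epiblast-like cells (Mrps24, Mrpl13, Mrpl34, Mrpl22 and Mrpl42) and 0 lower, with a median log2 fold change of 0.28. Of 82 cytoplasmic ribosomal protein genes, 6 were higher and 0 lower, with a median of 0.31. Of 13 mitochondrially encoded subunits 1 was higher, mt-Nd5 at 0.57 ± 0.16. None of 17 ATP synthase genes, 5 electron carrier genes or 14 citric acid cycle genes was called, with medians of 0.07, 0.18 and -0.16. Of 40 assembly factors tested, the complex III factor Uqcc2 was higher. Among 13 regulators of mitochondrial biogenesis, the pluripotency factor Esrrb was higher, by 5.67 ± 1.14 on the log2 scale, and Esrra, an orphan nuclear receptor, and Polg, the mitochondrial DNA polymerase, were lower, at -6.87 ± 1.93 and -1.83 ± 0.42.

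The second comparison asked how the genes changed between E4.5 epiblast-like cells and the E6.5 mixed-marker cluster, which stands in for the epiblast that was planned. The labels carry a further mark in each title (P1 or P2 at E4.5) that differs for every stage, so it and the stage cannot be told apart. All members that passed the test were lower at E6.5 and belonged to complexes III and IV. Of 65 members tested, 7 fell and 0 rose, or 10.8% and 0% (edgeR on 8 summed samples, 5 E4.5, 1 E5.5 and 2 E6.5 embryos). Of all 13371 genes, 1.79% fell and 0.725% rose. The median log2 fold change was -0.59 over the members and 0.08 over all genes. The members' median was -0.91 without E6.5 embryo 1, -0.27 without E6.5 embryo 2 and -0.31 with lineages from marker numbers per cell. The 7 genes were Cox6c, Uqcrb, Cox7c, Cox7b, Cox4i1, Uqcr10 and Cox6b1.

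Cox6c (chr15:35925886-35938246, minus strand, GRCm38) fell most among the 7. Its log2(CPM + 1) level was 10.45, 10.69, 11.10, 10.69 and 10.99 in the 5 E4.5 embryos and 8.94 and 8.65 in the 2 E6.5 embryos. The stages did not overlap. The log2 fold change was -2.07 ± 0.28 (adjusted p = 0.0012 by edgeR). It was -1.81 or lower in each of the 8 fits without 1 embryo, and Cox6c was called in all of them.

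Cox4i1 (chr8:120668222-120674207, plus strand, GRCm38) had levels of 11.27, 11.01, 11.27, 11.36 and 11.15 at E4.5 and of 10.04 and 9.61 at E6.5. Its log2 fold change was -1.46 ± 0.23 (adjusted p = 0.0034 by edgeR). Cox7c, a small membrane-spanning subunit of complex IV, went from 10.03, 10.05, 10.16, 10.25 and 10.46 to 8.88 and 8.69. Its log2 fold change was -1.60 ± 0.28 (adjusted p = 0.0084 by edgeR). The E6.5 embryos lay below every E4.5 embryo for both genes.

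Cox7b, another small membrane-spanning subunit, had log2(CPM + 1) levels of 10.58, 10.86, 11.05, 9.93 and 11.31 at E4.5 and of 9.55 and 9.31 at E6.5. Cox6b1, which faces the intermembrane space, had 10.15 to 10.48 at E4.5 and 9.63 and 9.26 at E6.5. Their log2 fold changes were -1.50 ± 0.33 and -1.04 ± 0.25 (adjusted p = 0.028 and 0.042 by edgeR). In complex III, Uqcrb, the ubiquinone-binding protein, changed by -1.68 ± 0.39 and Uqcr10 by -1.24 ± 0.30 (adjusted p = 0.038 and 0.047). No complex I or II gene was called.

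The medians were -0.53 over 36 complex I genes, -0.00 over 4 complex II genes, -0.38 over 8 complex III genes and -1.04 over 17 complex IV genes. Differences between complexes were not tested. The complex IV genes include Cox8c, Cox7b2 and Ndufa4l2, read in 2, 30 and 59 of the 217 cells. Their values were -6.20 ± 3.26, -4.28 ± 2.39 and 0.37 ± 2.06. The highest values in complexes I, II and III were those of Ndufs1 at 0.44 ± 0.55, Sdha at 0.27 ± 0.56 and Uqcrc2 at 0.40 ± 0.44. These are large catalytic or core subunits, and none passed the test. Core subunits as a set did not rise. The 7 of complex I had a median of -0.05, with 2 above 0. Uqcrc1, the other large core protein of complex III, was at -0.60 ± 0.24. Sdha levels were 6.86, 6.11, 5.46, 5.08 and 7.95 in E4.5 epiblast-like cells and 7.02 and 7.83 at E6.5, which overlap.

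**Figure D3:**
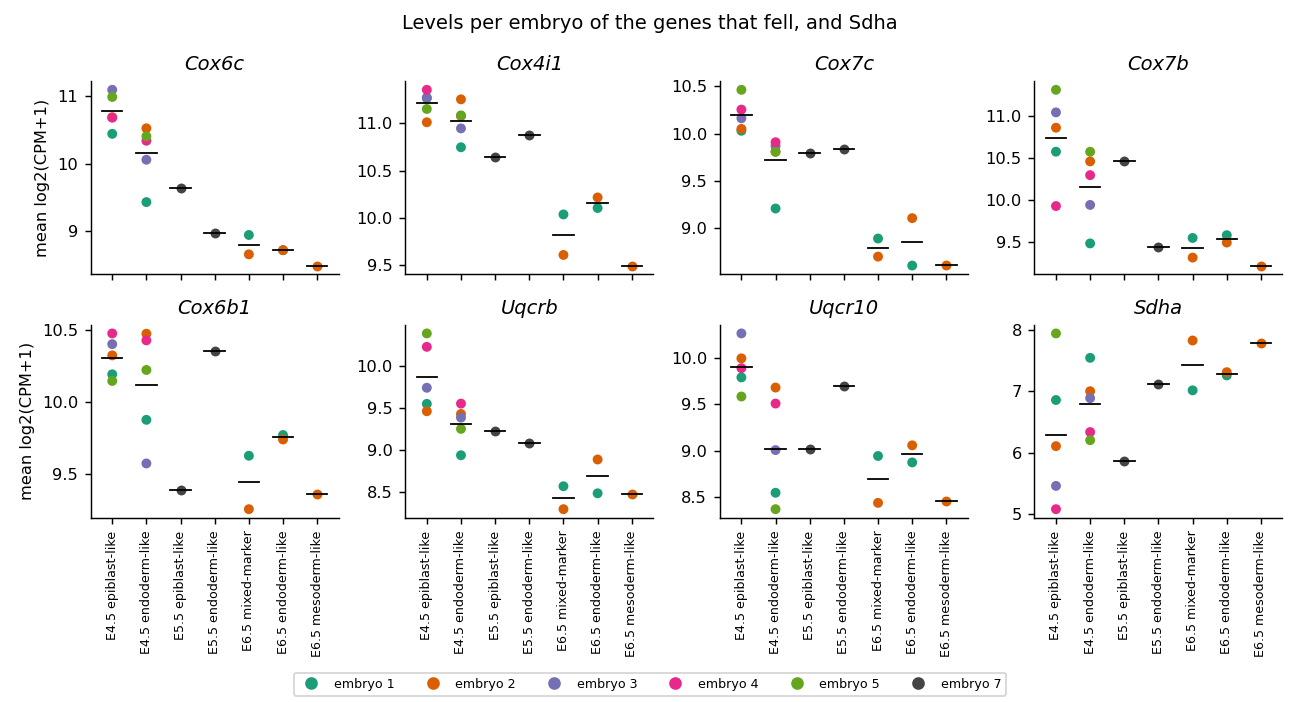
Mean log2(CPM + 1) per embryo (points, colored by embryo number within a stage) of the 7 genes that fell and of Sdha, by stage and lineage, with bars at the mean of embryos and a separate vertical scale for each gene. For Cox6c the E6.5 mixed-marker embryos, at 8.94 and 8.65, lie below the E4.5 epiblast-like embryos, at 10.45 to 11.10.

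The stage difference varied with transcript length. Members with a principal transcript of up to 600 bases had a median log2 fold change of -0.80 (18 genes), those of 600 to 1000 bases -0.64 (21 genes) and those of 1000 to 2000 bases -0.19 (20 genes). Beyond that the trend did not go on, at -0.31 for 2000 to 4000 bases (5 genes) and -0.81 for the 1 longer gene. The medians of all tested genes in the 5 classes were -0.61, -0.20, 0.10, 0.16 and 0.06. Members lay below all genes of like length in each class. Of the 7 genes that fell, 6 had transcripts under 1000 bases and Cox7b had 1001. The length of the principal transcript was adopted after values from another definition had been seen. Across the 65 members, Pearson's r between log2 length and log2 fold change was 0.40, a description over genes that share libraries. The part of transcript length in the result was not tested.

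**Figure D4:**
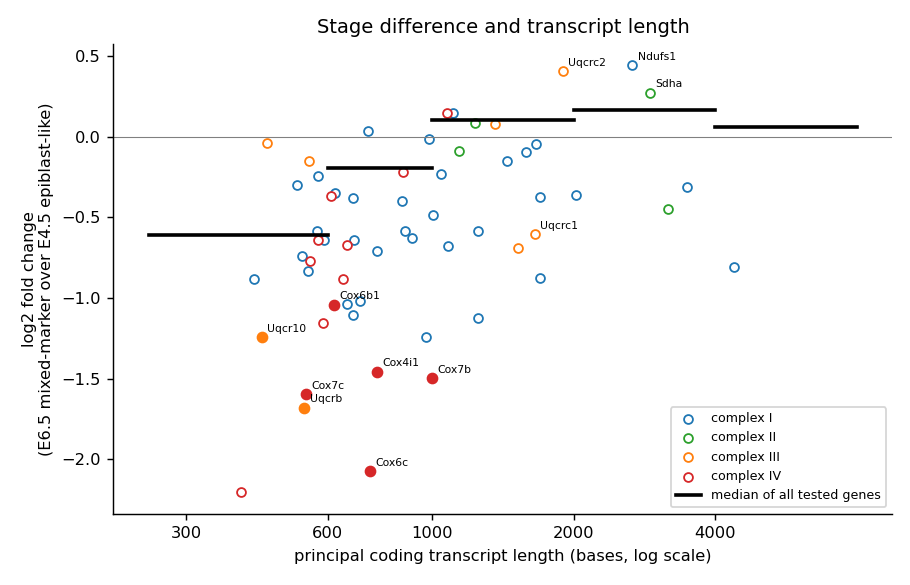
Log2 fold change between the E6.5 mixed-marker cluster and E4.5 epiblast-like cells against principal coding transcript length in bases (log scale), for the subunit genes reported here with a read in over 60 cells. Colors give the complex, filled points an adjusted p under 0.05, and black bars the median of all tested genes in a length class. Of the 7 filled points, 6 have transcripts under 1000 bases, where the all-gene medians are -0.61 and -0.20.

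The calls depended on which cells stood for E6.5. Over all kept cells of each stage, 0 members were called (edgeR, 9 at an unadjusted p under 0.05), the median was 0.05 and Uqcr10 turned to 0.80. With lineages from marker numbers per cell 1 was called, Cox6c, and without the mixed-marker cells with Elf5 reads, which leaves 3 cells, 4 were. Without E6.5 embryo 2 only Cox6c was called, and without E6.5 embryo 1 Cox4i1, Cox6c and Cox7c were. Any fit without 1 E6.5 embryo, in the endoderm too, leaves 1 sample at E6.5, whose spread is assumed to be that of the other samples.

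At E5.5, 1 embryo was available, so the test and its SEs take the spread from the E4.5 and E6.5 embryos and assume that E5.5 varies alike. Against E4.5, 0 of 65 members were called (edgeR, same fit and the same E4.5 embryos, 5 members at an unadjusted p under 0.05, 1 call by DESeq2). Of all genes 0.389% were called. The members' median was -0.19, with 26 of 65 above 0, but over all kept cells it was 0.26, with 52 of 67 above 0. The values of the 7 genes lay between 0 and their E6.5 values. These genes were chosen for a fall from the same E4.5 embryos, so values below 0 here are no separate support. Cox6c was -1.13 ± 0.35, Cox6b1 -0.95 ± 0.33, Uqcr10 -0.87 ± 0.39, Uqcrb -0.60 ± 0.48, Cox4i1 -0.52 ± 0.29, Cox7c -0.38 ± 0.35 and Cox7b -0.23 ± 0.40 on the log2 scale.

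In the endoderm the same stages were compared, with 5 E4.5 and 2 E6.5 embryos. Of 62 members tested, 2 fell, Cox6c and Cox7c, and 0 rose. That is 3.23% lower, where 1.87% of all 11240 genes fell and 1.86% rose. Cox6c levels were 9.43, 10.53, 10.06, 10.34 and 10.41 on the log2(CPM + 1) scale at E4.5 and 8.72 in both E6.5 embryos. Its log2 fold change was -1.74 ± 0.37 (adjusted p = 0.015 by edgeR). Cox7c changed by -1.35 ± 0.35 (adjusted p = 0.049). Without either E6.5 embryo neither gene was called, and their fold changes stayed between -1.90 and -1.68 and between -1.50 and -1.24 over the fits without 1 embryo. The members' median was -0.37 and that of all genes -0.07. The direction turned under other settings. With lineages from marker numbers per cell 0 members fell and 5 rose, the members' median was 0.26 and Cox7c was at 0.0054, and by limma, where the median of all genes was 0.77, theirs was 0.03. Up to 600 bases of transcript the medians were -0.58 for all genes and -0.61 for members, and from 600 to 1000 bases -0.23 and -0.58.

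Values in the endoderm for the other genes that fell in the mixed-marker comparison were -1.04 ± 0.28 for Cox4i1, -1.18 ± 0.39 for Uqcrb, -0.96 ± 0.35 for Cox7b, -0.58 ± 0.34 for Cox6b1 and -0.54 ± 0.38 for Uqcr10, none past the threshold. The E6.5 libraries of both comparisons came from the same 2 embryos. A direct test of whether the stage change differed between the lineages called 0 of 64 members (edgeR interaction term, 1 at an unadjusted p under 0.05) and 40 of 12622 genes. Among endoderm values above 0 were Sdhd at 0.89 ± 0.32 and Uqcrc2 at 0.83 ± 0.38 (adjusted p = 0.18 and 0.31 by edgeR).

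Beside the members, of the 17 ATP synthase genes tested none was called in either stage comparison, with medians of -0.65 in the mixed-marker comparison and -0.54 in the endoderm. The 13 mitochondrially encoded subunits had medians of -0.56 and -0.68 and no call. The mitochondrial ribosomal proteins had medians of -0.23 and 0.01, with 1 call, Mrps24, lower in the mixed-marker cluster. The cytoplasmic ribosomal proteins had medians of -0.27 and -0.46, and the same 2 genes were lower in both, Rpl10l and Rpl39l, retrocopies of the X-linked genes Rpl10 and Rpl39, between which reads may be split. Assembly factors (-0.13 and -0.12), electron carriers (-0.50 and -0.06) and the citric acid cycle (-0.25 and -0.14) had no call. Among the regulators Esrrb was lower in the mixed-marker cluster, by a log2 fold change of -3.19 ± 0.64 (adjusted p = 0.018 by edgeR).

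Within E6.5, endoderm-like and mesoderm-like cells were each set against the mixed-marker cluster in 1 fit of the 2 embryos. Mesoderm-like cells came from embryo 2 only, so that side is 1 sample whose spread is assumed to be that of the other clusters. No member was called in either, as no gene of 14058 was (0.00% in both). At an unadjusted p under 0.05 there were 0 of 65 members in each, and 93 and 55 of all genes, while DESeq2 called 3 genes and 1 gene, none a member. The members' medians were -0.06 and -0.02, and they turned with the setting, to 0.36 and -0.46 with classes from marker numbers, 0.18 and 0.35 by limma and -0.09 and -0.45 without the embryo block. The fit held all E6.5 clusters, and without its 4 cells with few genes 0 members were called in each and the medians were -0.00 and -0.22.

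Within the E5.5 embryo there is no replicate, so values of the 8 endoderm-like and 36 epiblast-like cells are given without a test. Of 63 members with at least 10 CPM in either, 10 were higher in the endoderm-like cells by at least 1 on the log2(CPM + 1) scale (15.9%, against 13% of all genes) and 9 were lower (14.3%, against 50.3%). The endoderm-like cells also had fewer genes read (median 4223.5 against 5958), more reads of mitochondrially encoded genes (mean 61348 against 30496 CPM) and fewer of ribosomal protein genes (81373 against 132771 CPM), and the part of these in the values was not tested. The largest differences upward were in Cox7a1, Ndufb4 and Ndufb10 and downward in Cox6b2, Cox7a2l and Uqcrc2. Ndufb4 had 721 CPM (exact Poisson 95% interval 708 to 734) over the endoderm-like cells and 201 CPM (197 to 205) over the epiblast-like cells. Ndufb10, another membrane-arm subunit, had 521 CPM (510 to 533) and 186 CPM (182 to 190). Cox7a2l had 49.01 CPM (45.6 to 52.6) and 126 CPM (123 to 129). Uqcrc2 had 67.9 CPM (63.9 to 72.1) and 112 CPM (109 to 115). These intervals cover counting error only, and amplified reads are not independent molecules.

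The isoform genes of complex IV were read very unequally. The general forms Cox4i1, Cox6a1, Cox6b1, Cox7a2, Cox8a and Ndufa4 lay between 8.81 and 11.36 on the log2(CPM + 1) scale in each embryo of both E4.5 lineages. Of the alternative forms, Cox8b, of heart and muscle, had no read in any of the 217 cells, while Cox6a2, of the same tissues, and the testis form Cox8c were read in 3 and 2 cells and the lung form Cox4i2 in 13.

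Cox6b2 (chr7:4751792-4753094, minus strand, GRCm38), known as a testis form of Cox6b1, was read in 17 of 24 E4.5 epiblast-like cells (70.8%, exact binomial 95% interval 48.9 to 87.4%) and in 11 of 50 endoderm-like cells (22%, 11.5 to 35.96%). These intervals pool the cells of all embryos and leave out the spread between embryos. Its log2(CPM + 1) levels were 4.25, 2.62, 4.38, 1.59 and 2.13 in the epiblast-like cells of embryos 1 to 5 and 1.97, 0.00, 1.16, 0.27 and 1.38 in their endoderm-like cells. The epiblast-like level was higher in 5 of 5 embryos. The log2 fold change of 1.94 ± 1.13 did not pass the test (adjusted p = 0.30 by edgeR). At E5.5 Cox6b2 was read in 29 of 36 epiblast-like cells and in 0 of 8 endoderm-like cells, which allows a share of up to 37.5% (3 counts of the total; the exact binomial limit is 36.9%), where the 8 cells had more reads (median 1806100 against 1274436) but fewer genes read. At E6.5 the shares were 24 of 29 mixed-marker, 7 of 12 endoderm-like and 21 of 23 mesoderm-like cells. More genes were read per cell at E6.5 than at E4.5, so these shares do not show a rise in level. From E4.5 to E6.5 its log2 fold changes were -1.16 ± 0.99 in the mixed-marker comparison and -0.78 ± 1.53 in the endoderm. Neither passed the test (adjusted p = 0.63 and 0.87 by edgeR).

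Cox7a1 (chr7:30184144-30186078, plus strand, GRCm38), the heart and muscle form of Cox7a2, was read in 42 of 50 endoderm-like and 19 of 24 epiblast-like cells at E4.5. Its levels were 4.595, 7.005, 3.94, 4.82 and 3.77 in endoderm-like cells and 5.33, 4.11, 3.00, 4.31 and 3.16 in epiblast-like cells, on the log2(CPM + 1) scale, and the lineages overlapped (log2 fold change -0.54 ± 0.45, adjusted p = 0.49 by edgeR). At E5.5 it had 82.3 CPM (77.9 to 86.9) over endoderm-like cells and 10.4 CPM (9.52 to 11.4) over epiblast-like cells. From E4.5 to E6.5 its fold changes were -2.20 ± 0.82 in the mixed-marker comparison and -2.13 ± 0.68 in the endoderm, and neither passed (adjusted p = 0.17 and 0.11).

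Ndufa4l2, a hypoxia-induced paralogue of Ndufa4, was read in 5 of 24 epiblast-like and 2 of 50 endoderm-like cells at E4.5 and in 7 of 36 epiblast-like cells at E5.5. The 8 E5.5 endoderm-like cells had no read of it. At E6.5 it was read in 19 of 29 mixed-marker cells and 17 of 23 mesoderm-like cells, at 7.92 and 4.90 CPM per kb. The E6.5 endoderm-like cells had less, at 1.97 CPM per kb. The counts of Ndufa4l2 were too few for the E4.5 test, and its E6.5 against E4.5 value was 0.37 ± 2.06 (adjusted p = 0.97 by edgeR). Cox7b2, known from testis, was read in 12 of 36 E5.5 epiblast-like cells (33.3%), 2 of 8 E5.5 endoderm-like cells (25%), 5 of 24 E4.5 epiblast-like cells (20.8%) and at most 10.3% of the cells of each other lineage shown.

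**Figure D5:**
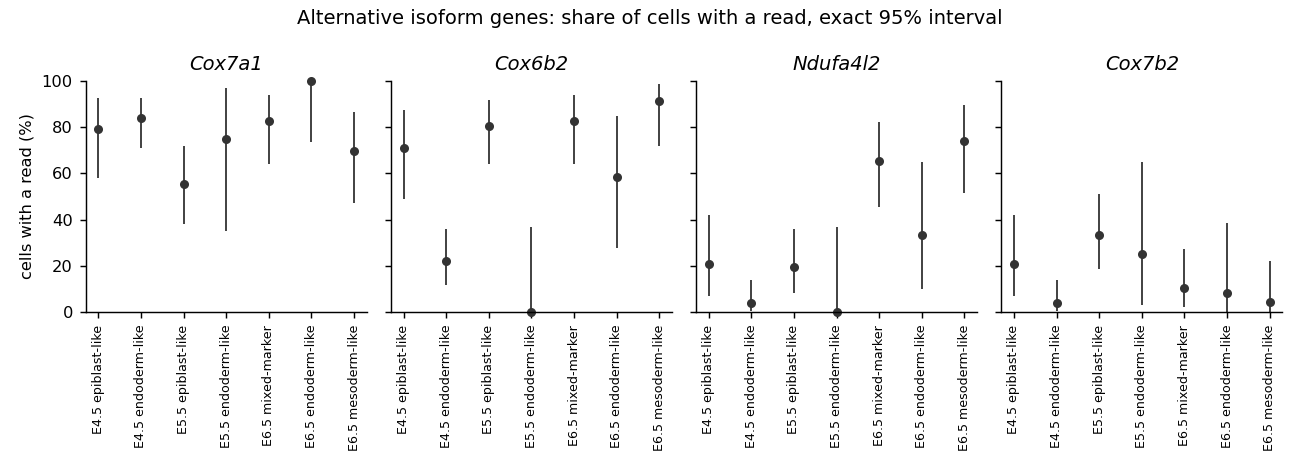
Share of cells with a read (percent, points) and its exact binomial 95% interval (bars) for 4 alternative isoform genes by stage and lineage. The bars cover counting error only, with the cells of all embryos pooled. Cox6b2 was read in 70.8% of E4.5 epiblast-like and 22% of E4.5 endoderm-like cells, and in 0 of 8 endoderm-like cells at E5.5.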

How the data were processed

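Single-cell RNA was sequenced from mouse embryos by a Smart-seq2 protocol. The authors deposited raw read counts per gene and cell with Ensembl identifiers. Per the submitters' processing notes, reads were trimmed with Trim Galore, aligned with HISAT2 2.1.0 to GRCm38 and counted with featureCounts. Strand and multi-mapping settings are not given in the sources used here, so short subunit genes with processed pseudogene copies are uncertain. The counts hold no molecular identifiers. Symbols were found for 21907 identifiers.

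Members and lists were chosen with earlier results of these data known. Cells were clustered with scanpy 1.11.5 (2000 variable genes, 20 components, 15 neighbours, Leiden resolution 1.2, chosen after seeing the data). The E4.5 split was the same in 20 of 20 seeds, and adjusted Rand indices were 0.83 to 1. No doublet caller was run. Counts were summed per embryo and cluster and tested with edgeR 4.0.16 (filterByExpr, TMM scaling, glmQLFTest, Benjamini-Hochberg), with DESeq2 1.42.0 and limma 3.58.1 as alternatives in R 4.3.3. The script was tested on simulated counts. The stage comparisons, with few E6.5 embryos, missed the first pass criterion of that test, a minimum share of known changes recovered, which was then loosened, so a member that was not called there may still have changed. Samples with 1 number at E4.5 and E6.5 are different embryos. SE is the log2 fold change over the root of the F statistic. Named genes were members past the threshold with at least 10 CPM in a group, complex II, the isoform sets and the 3 largest E5.5 differences each way. Ndufs1, Uqcr11 and, in the stage comparisons, Uqcrc1 and Uqcrc2 fall outside that rule and were named after their values were seen. No E6.5 cluster could be named epiblast-like, so the unnamed mixed-marker cluster took its place, a departure from the planned comparison. Bisulfite libraries were not analysed here. Counts and medians are over all members tested, and 1 member is not reported here by itself or drawn in the plots.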

Additional observations from a re-analysis of the deposited data

Results flagged for a closer look

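Of 46 groups of 5 E4.5 embryos examined, 6 held an embryo whose gap to the nearest other exceeded 0.71 of the group's range, where chance gives about 1 in 20. In endoderm-like cells, Cox7c was low in embryo 1, at 9.20 on the log2(CPM + 1) scale against 9.80 to 9.91 in the others. Sdhb was low in embryo 5, at 7.72 against 8.40 to 8.65. In epiblast-like cells, Ndufb4 was low in embryo 1, at 7.89 against 8.69 to 8.87. Sdhd was high in embryo 5, at 8.67 against 7.80 to 8.002, and so was the complex II sum, at 1414 CPM against 893 to 914. The sum over all 68 genes was low in embryo 1, at 33447 CPM against 35955 to 36747. No cause was tested.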

How the results depend on the processing

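Settings changed the calls more often than the directions. For E4.5 epiblast-like against endoderm-like cells, where 1245 genes and 7 members (all higher) were called, DESeq2 called 2541 genes, 11 members higher and 1 lower, limma on mean log2(CPM + 1) 2230 genes and 14 members, scaling by library totals 4 members, classes from marker numbers 3, and the fit without the 9 endoderm-like cells with few genes, chosen after seeing the data, 11. Within P1 and P2, 362 and 603 genes and 0 and 0 members were called. For the mixed-marker cluster against E4.5 epiblast, where 336 genes and 7 members (all lower) were called, DESeq2 called 951 and 13, limma 2363 and 14, no filter on low counts 691 genes, classes from marker numbers 1 member, and all kept cells 1008 genes and 0 members. In alternatives chosen after seeing the data, leaving out cells with Elf5 reads gave 4 members, and mesoderm-like cells at E6.5 gave 166 genes and 4 members. For E5.5, DESeq2 called 477 genes and 1 member, no filter 199 genes, limma 96 and all kept cells 272. In the endoderm, where 419 genes and 2 members were called, DESeq2 called 828 and 6, no filter 848 and 5, limma 2197 genes with 1 member higher and 2 lower, and marker numbers 1023 genes with 5 members higher and 0 lower. Within E6.5, DESeq2 called 3 and 1 genes, marker numbers 98 and 1, and limma, the stricter cell filter and leaving out the few-gene cells 23, 1 and 1 for mesoderm-like cells. The causes were not tested.

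Leaving out 1 embryo at a time gave 769 to 1037 genes and 0 to 6 members at E4.5 (median log2 fold change 0.14 to 0.28), 110 to 414 genes and 1 to 7 members for the mixed-marker comparison (-0.91 to -0.27), 148 to 510 genes and 0 to 5 members for the endoderm stages (-0.55 to -0.33), and 25 to 79 genes and 0 members for E5.5 (-0.19 to -0.12). The fits of E6.5 clusters and of E5.5 without its embryo could not be run.

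Embryo numbers do not pair E4.5 with E6.5 samples, as deviations of same-numbered embryos correlated at -0.03 to 0.02. With the replicate block, 5 members were lower in the mixed-marker cluster and 1, neither Cox6c nor Cox7c, in the endoderm. Within E4.5, where both lineages come from the same embryos, the fit without the block called 1 member.

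Signs that turned were those of Sdhb at E4.5 (0.049 by limma, 0.34 by marker numbers, -0.062 to 0.019 without 1 embryo, 0.035 within P2, 0.16 without the cells with few genes) and in the endoderm stages (0.17 by limma, 0.83 by marker numbers), Sdhd at E4.5 (-0.011 by library totals, -0.12 by limma, -0.026 by marker numbers, -0.024 to 0.17 without 1 embryo, -0.11 within P1), Sdha in the mixed-marker comparison (-0.096 to 0.89 without 1 embryo, the lowest without E6.5 embryo 2), Uqcr10 over all kept cells (0.80) and Cox7c in the endoderm by marker numbers (0.0054). In the mixed-marker comparison the median of all genes was 0.08, 0.24 with library totals and 0.61 by limma, and in the endoderm stages -0.07, 0.04 and 0.77, so members' values are relative to a centre that moved.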
